A study of Homo sapiens with 12 samples.

Results

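T47D cells, an established line of luminal, estrogen receptor-positive breast cancer, were compared directly under an aromatase inhibitor and under estradiol (E2). The comparison takes the 6 libraries that the sample labels assign to either agent alone, out of 12 in the series, with 3 libraries in each group, named a, b and c. One group received 10 nM anastrozole and the other 0.1 nM E2, and both had first been held for 48 h in RPMI medium with 5% charcoal-stripped serum and then for 24 h in the same medium free of serum. The labels give 12 h of treatment and the study methods give 24 h, so the time is uncertain. RNA sequencing reads were counted for 25370 genes, and 21132 of these, with at least 1 read somewhere in the series, were tested.

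Estradiol binds the estrogen receptor, a ligand-dependent transcription factor that raises the mRNA of a set of target genes in luminal breast cells and lowers that of another. Aromatase, the product of CYP19A1, makes estrogens from androgens, and anastrozole blocks that enzyme. Luminal cancer cells are known for their dependence on the receptor, and the progesterone receptor gene PGR is a classical readout of its activity. The vehicle libraries were not compared here, so a gene lower with anastrozole than with E2 is described by the difference between the agents and not by which of them moved it.

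Of 40 genes known to be raised by estrogen 14 were lower with anastrozole than with E2, led by OLFM1, MYBL1, GREB1, PGR and CXCL12, and of 13 known to be repressed by it 4 were higher, led by ERBB2 and IL1R1. Also lower with anastrozole were 7 of 20 enzymes that make sterols, 10 of 47 interferon-stimulated genes and the estrogen-metabolising gene CYP1B1. These differences were small. With edgeR's quasi-likelihood test and Benjamini-Hochberg adjustment over all 21132 genes, 280 genes (1.33%) had an adjusted p under 0.05, 131 (0.620%) of them higher and 149 (0.705%) lower with anastrozole, and 1858 genes (8.79%) had an unadjusted p under 0.05, 4.33% higher and 4.46% lower. All log2 fold changes are of anastrozole over E2. Each standard error is from the edgeR fit, in which the variance of 88.2% of genes was pooled fully over genes, so for most genes it is not the spread of the gene's own libraries. Levels are CPM, read counts scaled to a common library size after TMM normalization, and a gene that passed is one with an adjusted p under 0.05 in this test.

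The median size of the log2 fold change among the 280 genes was 0.22, and 251 of them were under 0.5. The genes that passed had many reads, with a median of 105 CPM against 9.75 CPM over all genes tested, and 271 of them were protein-coding. A mean under 8 CPM was found for 17 of the 280 genes, but for 10133 of the 21132 tested. The share that passed is thus higher among genes with more reads. The shares over all genes that stand beside the lists below do not allow for this. In 267 of the 280 the 3 anastrozole libraries lay entirely on one side of the 3 E2 libraries, which was so for 13.0% of all genes tested. The same 6 libraries selected these genes, so the separation largely follows from the selection. Here and for single genes below it is a description and not further support. The count depended on which libraries were in the fit. It was 134 without anastrozole b, 177 without E2 a, 107 without E2 b and 124 without E2 c, and DESeq2 called 107 and limma-voom 70. Of the 280 genes, 75 passed in each of the 6 fits that left out a library and 56 passed in each of the 18 alternatives tried. The labels do not state whether a, b and c are separate cultures, so the p-values cover only the spread among these libraries, largely as pooled over genes.

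**Figure D1:**
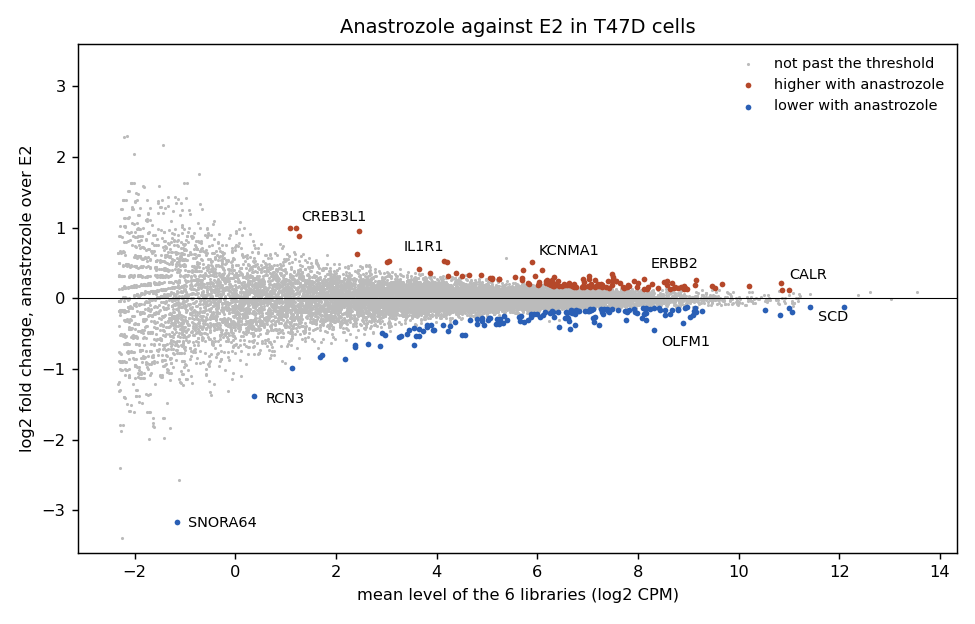
Log2 fold change of anastrozole over E2 (vertical axis) against the mean level of the 6 libraries in log2 CPM (horizontal axis), 1 point per gene with a mean of at least 0.2 CPM. The 131 genes that passed as higher are red and the 149 that passed as lower blue, and 251 of these 280 lie within 0.5 of 0.

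Depth differed between libraries. Anastrozole a held 13930525 reads counted on genes, anastrozole b 9914253 and anastrozole c 11317347. E2 a held 12665826, E2 b 17009776 and E2 c 14541688. The shallowest library was thus anastrozole b and the deepest E2 b, and the groups overlapped in depth. Between 17856 and 18393 genes had at least 1 read in a library, and the 10 genes with the most reads took 4.77% to 5.06% of the counts. A level of 3 counts, taken here as a floor, corresponds to 0.176 to 0.303 CPM. These floors cover counting error only.

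Anastrozole a and anastrozole c stood apart from each other by base composition. Genes of high GC content read lower in anastrozole a and higher in anastrozole c, and across the 10835 genes compared the difference between these libraries had a Spearman rho of -0.58 with exon GC content. Genes are not independent replicates, so this is a description. The same pair had the widest scatter of all pairs, with a chi-square of 4.62 for each degree of freedom. The other anastrozole pairs had 1.98 and 2.56 and the E2 pairs 1.61 to 2.28. Pairs of an anastrozole and an E2 library had 2.34 to 4.32, so anastrozole a and c differed more than any pair across the treatments. The trends largely cancelled in the group means, where the log2 fold change had a rho of 0.11 with GC content and 0.04 with exon length over 10814 genes. Without anastrozole a 388 genes (1.84%) passed, without anastrozole c 414 (1.96%), with 235 of those lower, and with each library's GC trend removed 495 (2.34%), which included 277 of the 280. The counts of the main gene groups are given below under these 3 conditions too, since part of the spread among the anastrozole libraries follows GC content.

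**Figure D2:**
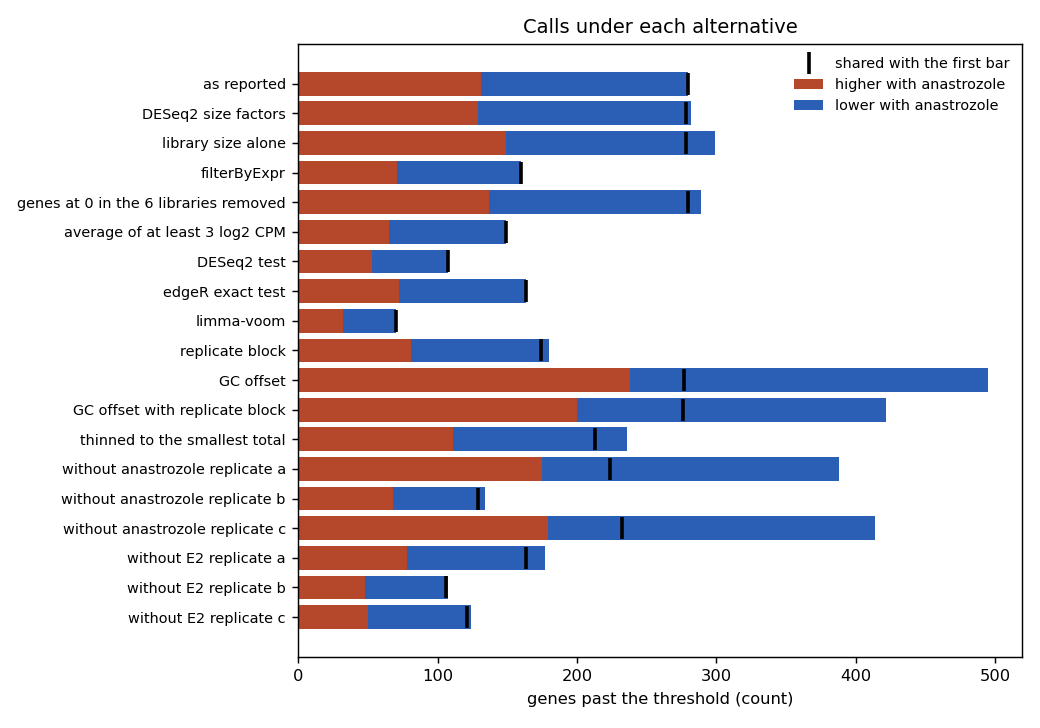
Number of genes that passed (horizontal axis, from 0) under each way of processing the counts, 1 bar each, split into higher (red) and lower (blue) with anastrozole, with a black mark at the number shared with the fit as reported. That fit gives 131 higher and 149 lower, the lowest total is 70 with limma-voom and the highest 495 with the GC trend removed.

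**Figure D3:**
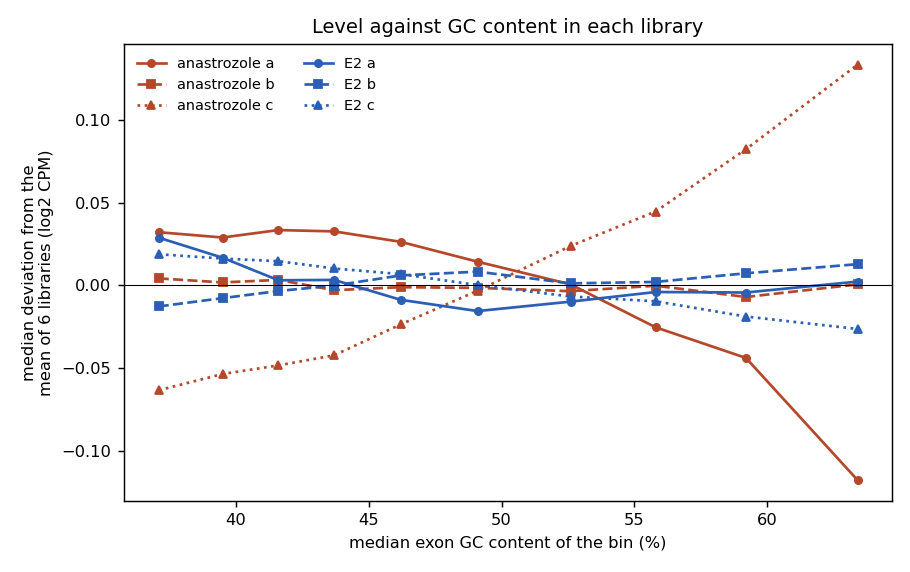
Median deviation of each library from the mean of the 6 in log2 CPM (vertical axis) against the median exon GC content in percent of 10 bins of about equal gene number (horizontal axis), 1 line per library. Anastrozole a goes from 0.03 in the lowest bin to -0.12 in the highest and anastrozole c from -0.06 to 0.13, while E2 a, b and c stay between -0.03 and 0.03.

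The cells carried the markers of their labelled type. The 12 luminal epithelial markers summed to 10480, 10946 and 11318 CPM in anastrozole a, b and c and to 11042, 10942 and 10755 CPM in E2 a, b and c. Those sums overlap between the groups, and the marker with the most reads was the keratin KRT19, with a mean of 2739 CPM. Of the 12, SPDEF passed as higher and PGR as lower. In the order anastrozole a, b, c and E2 a, b, c, the 8 basal and myoepithelial markers summed to 26.9, 22.9, 24.6, 25.2, 27.0 and 23.0 CPM, with ACTA2 highest at 10.3 CPM and KRT5 at no more than 3 counts. The 9 fibroblast markers summed to 88.3, 93.4, 97.5, 84.5, 93.7 and 93.5 CPM in the same order, nearly all from COL1A1 at a mean of 87.7 CPM. The defining fibroblast genes COL1A2, COL3A1 and PDGFRA were at no more than 3 counts over the 6 libraries, so the fibroblast sum is in effect the level of COL1A1. Adipocyte markers summed to between 1.73 and 2.63 CPM, of which PLIN1 gave 1.16 CPM on average and ADIPOQ, at 9 to 13 counts in each library, a mean of 1.07 CPM with anastrozole and 0.732 CPM with E2. LEP and CIDEC were at or under 3 counts. Endothelial markers summed to 0.433, 0.505 and 0.525 CPM in anastrozole a, b and c and to 0.0787, 0.353 and 0.415 CPM in E2 a, b and c. These anastrozole sums, though low, were all above the E2 sums. VWF was the highest of these markers at 0.262 CPM, and PECAM1, CDH5 and KDR were at or under 3 counts. Immune markers summed to between 12.0 and 14.4 CPM, with PTPRC at 0. No gene of the 5 non-luminal lists passed in edgeR, DESeq2 or limma-voom, and none had an unadjusted p under 0.05 in edgeR. In bulk RNA a smaller number of cells of some kind and less RNA per cell cannot be told apart.

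The direct targets of both agents were examined first. CYP19A1, the target of anastrozole, had 1 read in all 6 libraries, in E2 b, which gives no fold change. ESR1, the estrogen receptor through which E2 acts in luminal cells, was at 179.7, 187 and 172 CPM in anastrozole a, b and c and at 168, 166 and 162 CPM in E2 a, b and c. Every anastrozole library was above every E2 library, but the difference was narrow and did not pass, with a log2 fold change of 0.12 ± 0.04 (95% interval 0.04 to 0.20, edgeR adjusted p = 0.184). It did pass without anastrozole c (adjusted p = 0.0138) and with the GC trend removed (adjusted p = 0.0254). The second receptor ESR2 and the membrane receptor GPER1 were low, and their log2 fold changes of -0.39 (95% interval -0.86 to 0.08) and -0.18 (-0.86 to 0.51) did not pass. No gene of the 4 passed by edgeR, DESeq2 or limma-voom, and 1, ESR1, had an unadjusted p under 0.05.

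Genes that estrogen is known to induce made up the list with the most genes past the threshold. Of 40 such targets, 14 passed as lower with anastrozole, where 0.705% of all genes did, and 0 as higher, with a median log2 fold change of -0.16 against 0.00 over all genes tested, and 37 of the 40 were negative. GREB1, a chromatin-bound cofactor of the receptor and an early target, is at chr2:11622467-11782914 in GRCh37. It was at 470.4, 466 and 483 CPM in anastrozole a, b and c and at 564, 578 and 562 CPM in E2 a, b and c. All 3 anastrozole libraries were below all 3 E2 libraries, by more than the spread within either group (log2 fold change -0.26 ± 0.04, edgeR adjusted p = 2.1e-09). OLFM1 encodes olfactomedin, a secreted glycoprotein, and lies at chr9:137967268-138013026. Its levels were 274, 269.8 and 266 CPM with anastrozole and 363, 373 and 364 CPM with E2. This was the lowest p of all genes tested, with no overlap between the groups (-0.44 ± 0.04, adjusted p = 1.8e-25).

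PGR encodes the progesterone receptor. Its libraries read 1953, 2024 and 2040 CPM with anastrozole and 2297, 2247 and 2312 CPM with E2. The anastrozole libraries were the lower ones throughout (-0.19 ± 0.03, adjusted p = 7.3e-06). CXCL12, a chemokine that luminal cells secrete under estrogen, was at 259, 262 and 254 CPM with anastrozole and at 299.9, 297 and 307 CPM with E2. Again the groups did not overlap (-0.22 ± 0.04, adjusted p = 1.0e-05). MYBL1, a MYB-family transcription factor, had a log2 fold change of -0.37 (adjusted p = 4.1e-14), and FKBP4, a co-chaperone of steroid receptors, one of -0.18 (adjusted p = 2.4e-04, and 0.0631 without E2 b).

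The other members that passed, named here after their values were seen, were FHL2, HSPB8, IGFBP4, NRIP1, SERPINA1, SIAH2, SLC9A3R1 and STC2, with log2 fold changes from -0.22 to -0.14. Among them STC2 is a secreted stanniocalcin, IGFBP4 a binding protein of insulin-like growth factors and SIAH2 a ubiquitin ligase. Several targets with many reads did not pass. XBP1 had a log2 fold change of -0.02, CTSD of -0.01 and CA12, a carbonic anhydrase, of -0.11 (adjusted p = 0.174). CA12 did pass as lower with the GC trend removed (edgeR adjusted p = 0.014). TFF1, a widely used estrogen target, held 11 to 38 counts per library here and did not pass (-0.77 ± 0.33, adjusted p = 0.381). The count of lower members was 14 without anastrozole a, 16 without anastrozole c and 17 with the GC trend removed, but 9 without anastrozole b, 5 without E2 b and 8 without E2 c. DESeq2 called 9 and limma-voom 8, and GREB1, PGR, MYBL1, CXCL12 and OLFM1 passed in every alternative tried.

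Genes that estrogen is known to repress leaned the other way. Of 13 measured, 4 passed as higher with anastrozole, where 0.620% of all genes did, and 0 as lower, with a median log2 fold change of 0.11. ERBB2, the HER2 receptor tyrosine kinase, is at chr17:37844167-37886679. It was at 297, 293 and 319 CPM in anastrozole a, b and c and at 247, 254 and 249 CPM in E2 a, b and c. All anastrozole libraries were above all E2 libraries (0.28 ± 0.04, edgeR adjusted p = 3.4e-09). IL1R1, the signalling receptor for interleukin-1, was at 21.9, 21.2 and 22.3 CPM with anastrozole and at 16.2, 14.9 and 14.9 CPM with E2. That is 1.43 times the E2 level, with the groups well apart (0.51 ± 0.10, adjusted p = 3.1e-05).

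BCAS1, a gene amplified in some breast cancers, was also higher (0.32 ± 0.06, adjusted p = 2.9e-05), as was EFNA1, an ephrin ligand (0.20 ± 0.05, adjusted p = 0.0153). The call of EFNA1 was lost without anastrozole a, E2 a, E2 b or E2 c, where its adjusted p reached 0.169. The members with the most reads that did not pass were CCNG2, an unconventional cyclin (0.12, adjusted p = 0.163), TP53INP1 (0.08) and BCL6 (0.00). CCNG2 did pass as higher without anastrozole c (edgeR adjusted p = 0.0216) and with the GC trend removed (0.00969). The count of higher members was 3 without anastrozole a, 6 without anastrozole c and 6 with the GC trend removed, and DESeq2 called 3 and limma-voom 2.

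The receptor works with cofactors and with luminal transcription factors, and 12% of these passed, where 1.33% of all genes did. Of 25 genes, 2 passed as higher and 1 as lower, and the median log2 fold change was 0.07. SPDEF, an ETS factor of luminal cells, was at 197, 219 and 233 CPM with anastrozole and at 193, 179.5 and 185 CPM with E2. The anastrozole libraries were all above the E2 libraries, though anastrozole a only narrowly (0.22 ± 0.04, edgeR adjusted p = 4.2e-05). SPDEF did not pass in limma-voom (adjusted p = 0.231) or when genes averaging under 3 log2 CPM were dropped (0.0749). TFAP2A, an AP-2 factor, was higher (0.16 ± 0.05, adjusted p = 0.0422), a call kept only without anastrozole a and with an adjusted p of up to 0.297 when another library was left out. NRIP1, a corepressor that is itself an estrogen target, was lower (-0.15 ± 0.04, adjusted p = 0.0242), and its adjusted p reached 0.442 without anastrozole b, E2 b or E2 c. TRPS1 (0.11, adjusted p = 0.096), GATA3 (0.08) and XBP1 did not pass. The counts were 3 higher and 1 lower without anastrozole a and also without anastrozole c, 5 and 1 with the GC trend removed, and 1 and 0 without anastrozole b, E2 b or E2 c. DESeq2 called 1 higher and 0 lower and limma-voom 0.

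**Figure D4:**
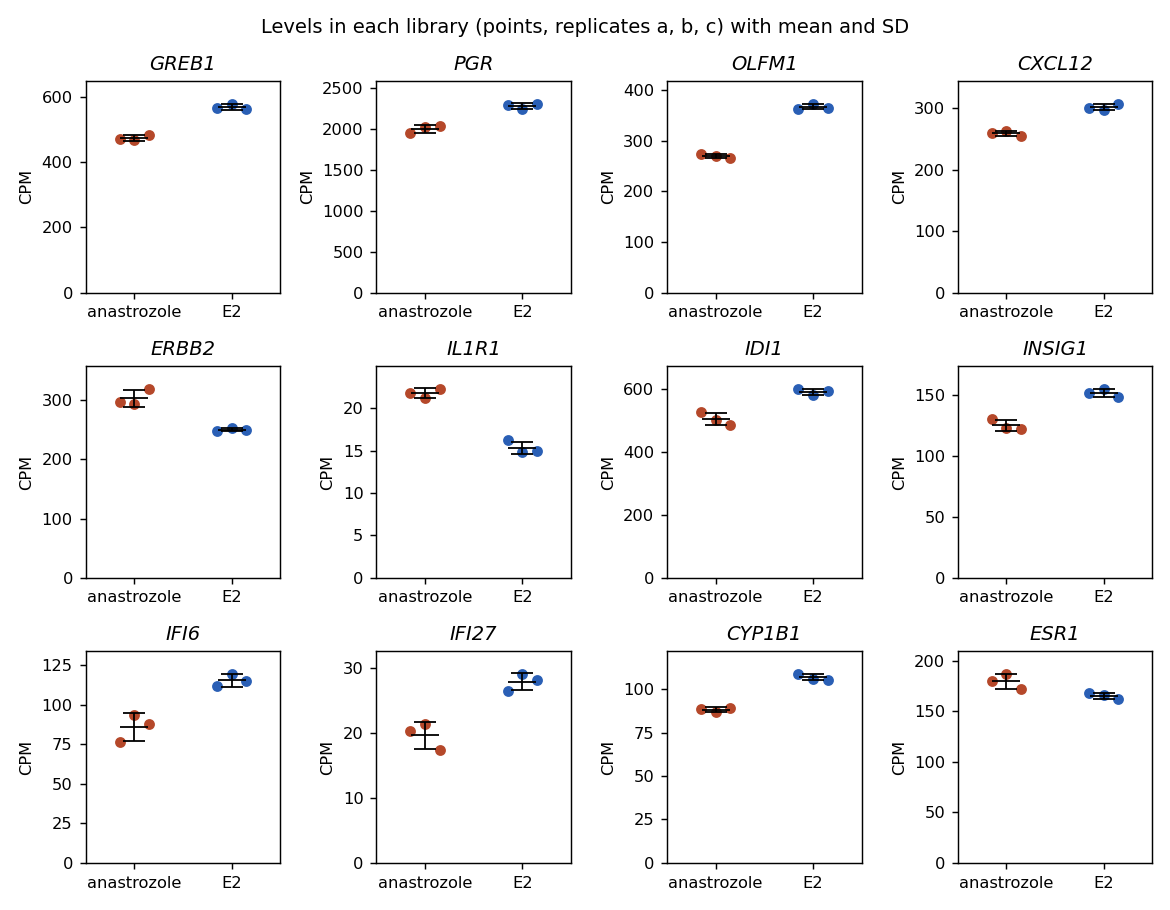
CPM in each of the 6 libraries (points, vertical axis from 0) for 12 genes, by group, with a wide line at the mean of 3 libraries and bars of 1 SD. GREB1 sits at 466 to 483 CPM with anastrozole and at 562 to 578 with E2, IL1R1 at 21.2 to 22.3 and 14.9 to 16.2, and ESR1 at 172 to 187 and 162 to 168.

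Enzymes of cholesterol synthesis were lower with anastrozole than with E2 at several steps of the pathway. Of 20 enzymes, 7 passed as lower, where 0.705% of all genes did, and 1 as higher, where 0.620% did, with a median log2 fold change of -0.13, and 17 of the 20 were negative. IDI1, which isomerises isopentenyl diphosphate, is at chr10:1085092-1095059. It was at 525, 503 and 485 CPM in anastrozole a, b and c and at 600.1, 581 and 593 CPM in E2 a, b and c. The groups did not overlap, although the anastrozole libraries spread more widely than the E2 ones (-0.23 ± 0.04, edgeR adjusted p = 4.9e-07). FDPS, the farnesyl diphosphate synthase, was at 359, 347 and 321 CPM with anastrozole and at 397, 406 and 404 CPM with E2. Anastrozole c was the lowest library and all 3 lay below E2 (-0.23 ± 0.04, adjusted p = 1.1e-06).

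The antisense genes IDI2-AS1 and RUSC1-AS1, which cover 15% of IDI1 and 18.6% of FDPS from the opposite strand, passed as lower too. Reads from these overlaps cannot be assigned if the strand was not used in counting. HMGCS1, the synthase at the entry of the pathway (-0.20 ± 0.04, adjusted p = 3.4e-05), MSMO1, a sterol C4-methyl oxidase (-0.20, adjusted p = 4.2e-04), and the squalene epoxidase SQLE (-0.20, adjusted p = 2.9e-04) were of like size. The squalene synthase FDFT1 (-0.17, adjusted p = 0.0024), named after its values were seen, passed as well, and its adjusted p reached 0.0925 without E2 b or E2 c.

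Of the enzymes with many reads that did not pass, LSS had a log2 fold change of -0.12 (adjusted p = 0.12), DHCR7 of -0.10 and SC5D of -0.10. DHCR7 did pass as lower without anastrozole c (edgeR adjusted p = 0.00994) and with the GC trend removed (0.0201). The counts were 2 higher and 8 lower without anastrozole a, 1 and 9 without anastrozole c, and 1 and 12 with the GC trend removed. DESeq2 called 1 higher and 4 lower and limma-voom 1 and 3, and IDI1, FDPS and SQLE were among those that passed in every alternative.

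Of the regulators that set the activity of this pathway 1 passed. INSIG1, which holds the SREBP complex in the endoplasmic reticulum and is itself a target of SREBP, was the 1 gene of 16 (6.25%) that passed, where 1.33% of all genes did. It was at 130.5, 123 and 122 CPM with anastrozole and at 152, 155 and 148 CPM with E2. The groups lay apart by more than their spread (-0.27 ± 0.04, edgeR adjusted p = 4.8e-07), and the gene passed in every alternative. SREBF1 (0.13, adjusted p = 0.164) and SREBF2 (-0.04) did not pass, and the median of the list was -0.03. Among 16 genes of fatty acid synthesis 2 (12.5%) passed, both lower, where 0.705% of all genes did, with a median of 0.03 that ranged from -0.01 to 0.04 over the alternatives. These were ACSS2, an acetyl-CoA synthetase (-0.19 ± 0.05, adjusted p = 0.00993), and the desaturase SCD (-0.12 ± 0.03, adjusted p = 0.0278). ACSS2 lost its call without anastrozole b or E2 b and SCD without anastrozole b, E2 a, E2 b or E2 c, and each had an adjusted p of up to 0.494 there. FASN, ACLY and ELOVL5 did not pass, with log2 fold changes of 0.10, -0.07 and 0.04, but FASN passed as higher without anastrozole a (adjusted p = 2.2e-04). The list gave 1 higher and 3 lower without anastrozole a, 0 and 2 without anastrozole c and 0 and 3 with the GC trend removed, and DESeq2 and limma-voom called 1 lower each.

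Interferon-stimulated genes, the antiviral effectors that cells raise under interferon signalling, were lower with anastrozole where they passed. Of 47 genes, 10 passed as lower, where 0.705% of all genes did, and 0 as higher, with a median log2 fold change of -0.08, and 38 of the 47 were negative. IFI6, a mitochondrial and endoplasmic reticulum protein that limits apoptosis, is at chr1:27992575-27998723. Its levels were 76.5, 93.4 and 87.9 CPM in anastrozole a, b and c and 112, 119.5 and 115 CPM in E2 a, b and c. Anastrozole a was the lowest library and even the highest anastrozole library was below every E2 library (-0.43 ± 0.05, edgeR adjusted p = 8.8e-16). IFI27, its relative by family, was at 20.3, 21.3 and 17.3 CPM with anastrozole and at 26.5, 29.1 and 28.1 CPM with E2. The E2 level was 1.43 times that with anastrozole, with no overlap (-0.51 ± 0.09, adjusted p = 2.2e-06).

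HERC6, a HECT-type ligase (-0.46 ± 0.09, adjusted p = 4.3e-04, and 0.0607 in limma-voom), was lower in every library as well. OAS1 (-0.46 ± 0.11, adjusted p = 0.00494) and OAS3 (-0.19 ± 0.04, adjusted p = 0.00105) are oligoadenylate synthetases that activate RNase L, and both lost their calls without anastrozole b or E2 b, with an adjusted p of up to 0.377 and 0.151. Further members that passed, IFIT1, IFITM1, MX1 and HELZ2, had log2 fold changes from -0.31 to -0.17 and are named after their values were seen. The groups of HELZ2 overlapped. The members with the most reads, ADAR (-0.02), BST2 (-0.03) and TRIM25 (0.08), did not pass. The count of lower members was 9 without anastrozole a, 9 without anastrozole c and 11 with the GC trend removed, but 3 without anastrozole b, 6 without E2 a, 4 without E2 b and 5 without E2 c. DESeq2 called 4 and limma-voom 2, and IFI6 and IFI27 passed in every alternative.

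Promoters of 5 lower members are shown because they hold a short motif within the stretch printed. The motif searched on both strands was GAAANNGAAA, the core of the interferon-stimulated response element, in RefSeq promoters on GRCh38.p14 that run from 250 bases before to 50 after a gene's start. It was found in 414 of 13712 promoters of tested genes (3.02%), in 21 of 37 of the interferon list (56.8%) and in 6 of the 9 lower members with a promoter (66.7%). The 150 bases before the start are printed 5′ to 3′ along the gene's strand, with each match that lies within them in capitals, for IFI6 (chr1:27672193-27672342, minus strand), IFI27 (chr14:94110586-94110735, plus), IFIT1 (chr10:89392473-89392622, plus), OAS3 (chr12:112938324-112938473, plus) and IFITM1 (chr11:313890-314039, plus).
IFI6: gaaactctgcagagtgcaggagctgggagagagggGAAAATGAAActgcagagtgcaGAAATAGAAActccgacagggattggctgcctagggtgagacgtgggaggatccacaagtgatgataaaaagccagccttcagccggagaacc
IFI27: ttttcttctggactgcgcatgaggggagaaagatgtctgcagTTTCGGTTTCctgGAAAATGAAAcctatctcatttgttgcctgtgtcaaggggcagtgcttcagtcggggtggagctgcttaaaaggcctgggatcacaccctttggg
IFIT1: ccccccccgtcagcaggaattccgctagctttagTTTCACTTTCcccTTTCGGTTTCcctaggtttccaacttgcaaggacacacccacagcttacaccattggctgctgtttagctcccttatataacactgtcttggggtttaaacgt
OAS3: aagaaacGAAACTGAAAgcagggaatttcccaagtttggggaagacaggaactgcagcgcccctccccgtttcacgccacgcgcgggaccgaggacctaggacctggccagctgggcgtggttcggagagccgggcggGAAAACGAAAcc
IFITM1: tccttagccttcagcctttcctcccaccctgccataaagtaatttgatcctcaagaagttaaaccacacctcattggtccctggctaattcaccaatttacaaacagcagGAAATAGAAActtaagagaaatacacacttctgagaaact
IFI6, IFI27, IFIT1 and OAS3 each show 2 matches in this stretch and IFITM1 shows 1. MX1 has 1 match, which does not lie wholly within the 150 bases, and HERC6, OAS1 and HELZ2, which also passed as lower, have 0 in their promoters. A match is a description of the letters and not a site of binding. The estrogen response element in its full palindromic form, GGTCANNNTGACC, was found in 3 of the 13712 promoters (0.0219%) and in 0 of 217 promoters of genes that passed, which says only that these letters are not in that window.

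Antigen presentation by MHC class I, which interferon also raises, had 1 call. Of 19 genes 1 (5.26%) passed, where 1.33% of all genes did, namely the chaperone gene CALR, which was higher with anastrozole (0.12 ± 0.03, edgeR adjusted p = 0.0268) and lost its call without anastrozole b, E2 a, E2 b or E2 c, with an adjusted p of up to 0.345. The median of the list was -0.04, and B2M (-0.07) and HLA-B (-0.04) did not pass.

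Estrogen metabolism and the aryl hydrocarbon receptor share target genes. Of 25 measured genes of the 26 listed, 3 (12%) passed, all lower with anastrozole, where 0.705% of all genes did, and the median log2 fold change was -0.00, with a range of -0.05 to 0.03 over the alternatives. CYP1B1, a cytochrome that hydroxylates estradiol and a target of the aryl hydrocarbon receptor, is at chr2:38294116-38337044. It was at 88.8, 86.8 and 89.3 CPM in anastrozole a, b and c and at 109, 106 and 105 CPM in E2 a, b and c. Each group was tight and all anastrozole libraries were below all E2 libraries (-0.27 ± 0.05, edgeR adjusted p = 6.3e-06). TIPARP, a mono-ADP-ribosyltransferase that represses the same receptor, was at 45.4, 46.0 and 43.0 CPM with anastrozole and at 56.6, 56.2 and 54.3 CPM with E2. Its groups were as clearly apart (-0.31 ± 0.07, adjusted p = 5.9e-04), and both genes passed in every alternative. HSD17B12, a reductase of long-chain fatty acids and of estrone, was lower too (-0.17 ± 0.05, adjusted p = 0.0141), with an adjusted p of up to 0.271 without anastrozole b, E2 a, E2 b or E2 c. The genes HSD17B4 (0.00), NQO1 (0.09) and ARNT (-0.08) did not pass. DESeq2 and limma-voom called 2 lower each, and without anastrozole c the list had 1 higher and 3 lower.

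**Figure D5:**
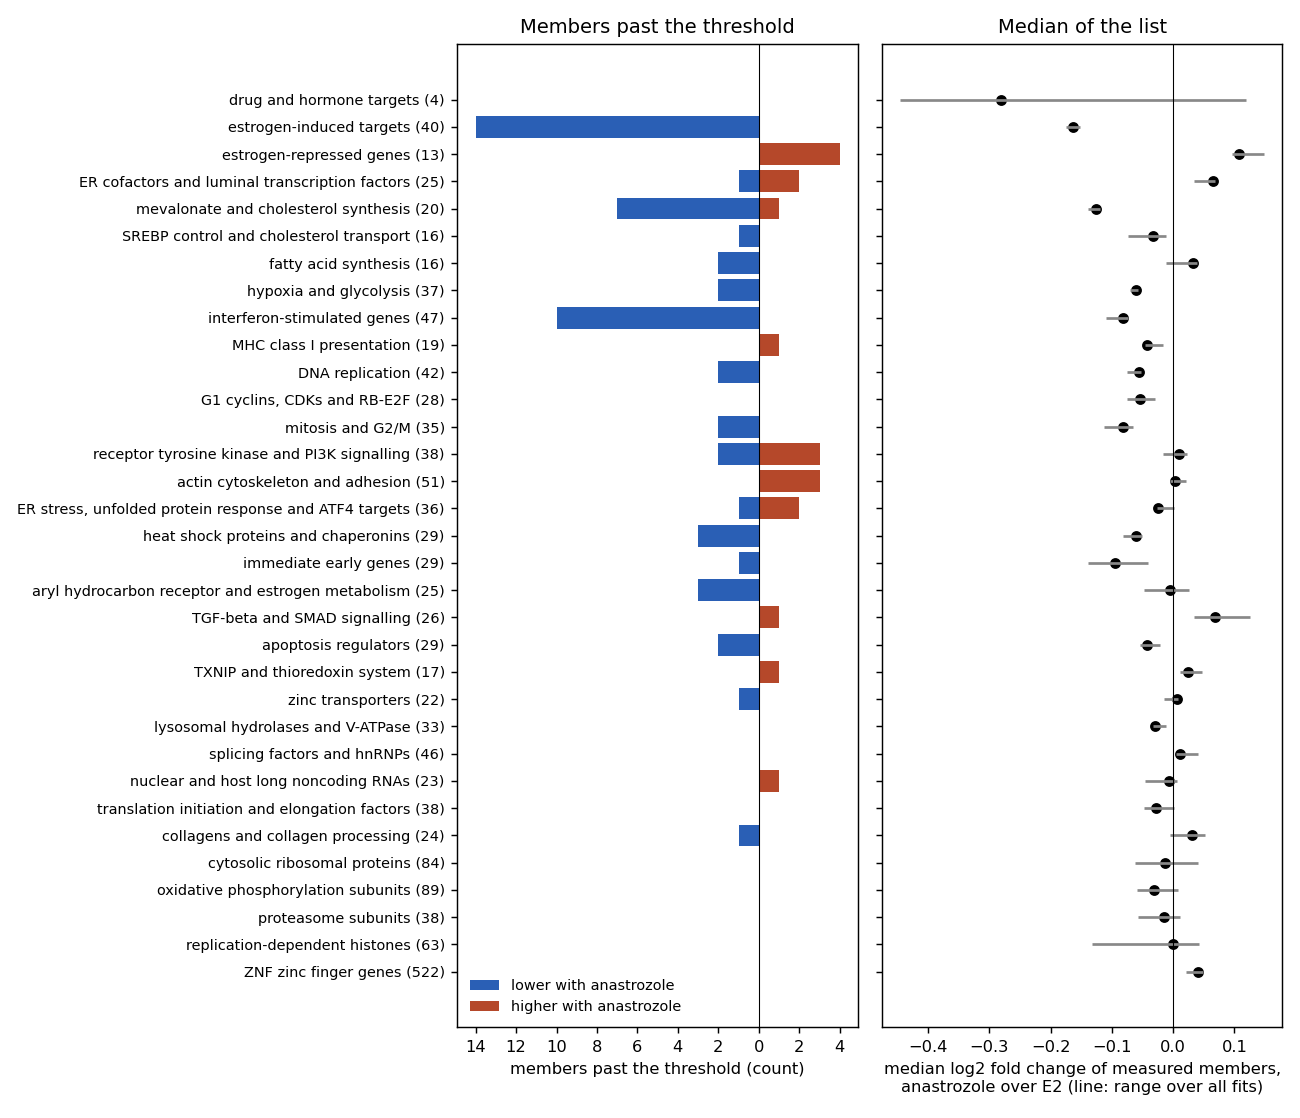
Left, number of members of each of 33 gene lists (measured members in brackets) that passed as lower (blue) or higher (red) with anastrozole, and right, the median log2 fold change of the measured members (points) with its range over all fits (lines). Estrogen-induced targets have 14 lower members and a median of -0.16, and estrogen-repressed genes 4 higher members and a median of 0.11.

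Most cell cycle genes had a negative log2 fold change. Among 42 genes of DNA replication 2 (4.76%) passed, both lower, where 0.705% of all genes did, and the median log2 fold change was -0.06, with 36 of the 42 negative. RRM2, the inducible subunit of ribonucleotide reductase, was at 228, 231 and 228 CPM with anastrozole and at 249.6, 257 and 256 CPM with E2. FEN1, the nuclease that trims Okazaki fragments, was at 156, 154 and 144 CPM with anastrozole and at 168, 169 and 168 CPM with E2. Both had groups that did not overlap (RRM2 -0.15 ± 0.04, edgeR adjusted p = 0.0172, and FEN1 -0.15 ± 0.04, adjusted p = 0.0288). RRM2 lost its call without anastrozole b, E2 a, E2 b or E2 c, with an adjusted p of up to 0.255, and FEN1 kept its own only without anastrozole a, with up to 0.26 elsewhere. No member passed in DESeq2 or limma-voom. In edgeR 8 had an unadjusted p under 0.05 and were lower, as were 4.46% of all genes. As lower, 5 passed without anastrozole a, 1 without anastrozole c and 3 with the GC trend removed. In those fits 1.84%, 1.96% and 2.34% of all genes passed in either direction. The processivity clamp PCNA did not pass (-0.11, adjusted p = 0.225), nor did RRM1 (-0.09) or MCM4 (-0.04).

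Among 35 genes of mitosis 2 (5.71%) passed, both lower, where 0.705% of all genes did, with a median of -0.08 and 33 of 35 negative. PTTG1, the securin that guards sister chromatids (-0.19 ± 0.05, edgeR adjusted p = 0.0226), lost its call without anastrozole b, E2 a, E2 b or E2 c, with an adjusted p of up to 0.33. ANLN, a scaffold of the cytokinetic ring (-0.13 ± 0.04, adjusted p = 0.0407), kept its call only without anastrozole a, with up to 0.335 elsewhere. Neither passed in DESeq2 or limma-voom. In edgeR 15 members had an unadjusted p under 0.05 and were all lower, as were 4.46% of all genes. As lower, 5 passed without anastrozole a, 1 without anastrozole c and 4 with the GC trend removed. In those fits 1.84%, 1.96% and 2.34% of all genes passed in either direction. TOP2A (-0.09), CENPF (0.00) and ECT2 (-0.06) did not pass. Of 28 G1 cyclins, cyclin-dependent kinases and RB-E2F genes, 0 passed by edgeR, DESeq2 or limma-voom, with 1 higher and 3 lower at an unadjusted p under 0.05, which 8.79% of all genes reached, and a median of -0.05. CCND1, the cyclin D1 gene often cited as an estrogen target, had a log2 fold change of 0.00 (95% interval -0.08 to 0.09), and MYBL2, an E2F target, of -0.12 (adjusted p = 0.18).

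Receptor tyrosine kinases and their PI3K pathway showed members in both directions. Of 38 genes, 3 passed as higher, where 0.620% of all genes did, and 2 as lower, where 0.705% did, with a median log2 fold change of 0.01 that ranged from -0.02 to 0.02 over the alternatives. Besides ERBB2, its partner receptor ERBB3 was higher, at 448, 442 and 449.5 CPM with anastrozole against 392, 401 and 406 CPM with E2. The groups did not overlap (0.16 ± 0.04, edgeR adjusted p = 0.00494), and the call was lost without E2 a or E2 b, with an adjusted p of up to 0.119. PIK3R1, the regulatory subunit of PI3K, was higher as well (0.18 ± 0.04, adjusted p = 0.00764), with up to 0.167 without anastrozole b, E2 b or E2 c. Lower with anastrozole were IGFBP4 (-0.18 ± 0.04, adjusted p = 4.2e-04, and 0.0822 without E2 b) and the EGFR ligand TGFA (-0.33 ± 0.08, adjusted p = 0.00816, and 0.217 without E2 a). Members with many reads that did not pass were IGFBP5 (0.05), AKT1 (-0.01) and SHC1 (0.04). The list gave 4 higher and 3 lower without anastrozole a, 4 and 4 without anastrozole c, 5 and 4 with the GC trend removed, 2 and 1 without E2 a, and 1 and 1 without E2 b. DESeq2 and limma-voom each called 2 higher and 1 lower.

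Of 51 genes of the actin cytoskeleton and adhesion, 3 (5.88%) passed, all higher, where 0.620% of all genes did, with a median of 0.00. CORO1B, a coronin that remodels branched actin, was at 195, 198 and 222 CPM with anastrozole and at 174, 171 and 169.9 CPM with E2. Anastrozole c was the highest library and the groups lay apart (0.25 ± 0.04, edgeR adjusted p = 7.0e-07), while 17.0% of the gene's exons also belong to PTPRCAP on the same strand. Its adjusted p was 0.0805 in limma-voom, the 1 alternative in which it did not pass. The focal adhesion scaffold PXN (0.15 ± 0.04, adjusted p = 0.026) and the cofilin phosphatase SSH3 (0.17 ± 0.05, adjusted p = 0.0212) also passed. PXN lost its call without anastrozole b, anastrozole c, E2 b or E2 c, with an adjusted p of up to 0.368, and SSH3 kept its own only without anastrozole a, with up to 0.407 elsewhere. The count was 6 higher without anastrozole a, 1 higher and 1 lower without anastrozole c, and 7 higher with the GC trend removed, and DESeq2 called 1 and limma-voom 0. The actins ACTB (0.03) and ACTG1 (-0.06) and the cadherin CDH1 (0.07) did not pass. NFAT5, a transcription factor of the osmotic response, was lower with anastrozole (-0.16 ± 0.04, adjusted p = 0.0372) and lost its call without anastrozole b, E2 a, E2 b or E2 c, with an adjusted p of up to 0.549.

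In the lists of metabolic and folding stress, single genes passed. Among 37 genes of hypoxia and glycolysis 2 (5.41%) passed, both lower, where 0.705% of all genes did, with a median of -0.06. PFKFB3, which makes the activator of phosphofructokinase, was at 253, 252 and 266 CPM with anastrozole and at 317, 324 and 310.2 CPM with E2. The groups were far apart (-0.30 ± 0.04, edgeR adjusted p = 3.6e-11) and the gene passed in every alternative. ERO1L, an oxidase of the endoplasmic reticulum (-0.16 ± 0.04, adjusted p = 0.00494), lost its call without anastrozole b, E2 a or E2 c, with an adjusted p of up to 0.126. The list gave 7 lower and 0 higher without anastrozole a, 6 lower and 1 higher without anastrozole c, and 8 lower and 1 higher with the GC trend removed, where 1.84%, 1.96% and 2.34% of all genes passed in either direction. DESeq2 called 2 lower and limma-voom 1. LDHA (-0.11, adjusted p = 0.0805), ENO1 (0.00) and GAPDH (-0.07) did not pass.

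Of 36 genes of the unfolded protein response and ATF4 program 3 (8.33%) passed, where 1.33% of all genes did. Of these 2 were higher, SEL1L of the degradation machinery (0.14 ± 0.04, adjusted p = 0.0113) and CALR, and 1 was lower, STC2 (-0.16 ± 0.04, adjusted p = 0.00316). CALR was already counted with MHC class I and STC2 with the estrogen-induced targets. SEL1L lost its call without anastrozole b, E2 a, E2 b or E2 c, with an adjusted p of up to 0.174, and STC2 without E2 b or E2 c, with up to 0.13. The median was -0.02, and HSPA5 (0.06) and HSP90B1 (0.08), chaperones of the endoplasmic reticulum, did not pass. Of 29 heat shock proteins and chaperonins 3 (10.3%) passed, all lower, where 0.705% of all genes did, with a median of -0.06. These were FKBP4, the cognate chaperone HSPA8 (-0.13 ± 0.03, adjusted p = 0.0125) and the small heat shock protein gene HSPB8 (-0.22 ± 0.06, adjusted p = 0.0217). FKBP4 and HSPB8 are also on the list of estrogen-induced targets and were counted there, so only HSPA8 is added here. HSPA8 lost its call without anastrozole b, E2 a, E2 b or E2 c, with an adjusted p of up to 0.31, and HSPB8 kept its own only without anastrozole a, with up to 0.215 elsewhere. Without anastrozole a 7 members passed as lower, without anastrozole c 3, and with the GC trend removed 6, where 1.84%, 1.96% and 2.34% of all genes passed in either direction. DESeq2 and limma-voom called 1 lower each. HSP90AA1 (-0.10, adjusted p = 0.095), HSP90AB1 (-0.04) and HSPB1 (-0.08) did not pass.

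Several further lists had 1 or 2 genes past the threshold, 3.45% to 6.9% of their members, where 1.33% of all genes passed. The latter share includes 10133 genes under 8 CPM, which held only 17 of the 280 calls. These lists were not compared with genes of like level, and a single call is not read as a result about a list. KLF10, a Kruppel-like factor induced early by estrogen and TGF-beta, was the 1 of 29 immediate early genes to pass (-0.21 ± 0.05, edgeR adjusted p = 0.00864, list median -0.09), with an adjusted p of up to 0.377 without anastrozole b, E2 a or E2 b. Its list had 4 lower members past the threshold without anastrozole c and 4 with the GC trend removed. TGFB3, a TGF-beta ligand, was the 1 of 26 genes of TGF-beta and SMAD signalling, and was higher (0.22 ± 0.05, adjusted p = 0.00655, list median 0.07), with up to 0.18 without anastrozole b, E2 b or E2 c. Of 29 apoptosis regulators 2 were lower, the inhibitor gene BIRC3 (-0.35 ± 0.07, adjusted p = 6.5e-04) and cytochrome c, CYCS (-0.21 ± 0.04, adjusted p = 4.4e-05), with a list median of -0.04. Both passed whichever library was left out and in DESeq2, but not in limma-voom (adjusted p = 0.132 and 0.0815). KLF10 and TGFB3 passed in neither of these.

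TXNIP, an arrestin-family protein that binds thioredoxin, was the 1 of 17 genes of its list, and was higher (0.15 ± 0.04, adjusted p = 0.0125, list median 0.03). Its call was kept only without anastrozole c, with an adjusted p of up to 0.291 elsewhere. The zinc importer SLC39A10 was the 1 of 22 zinc transporters, and was lower (-0.26 ± 0.06, adjusted p = 8.5e-04, list median 0.01, from -0.01 to 0.01 over the alternatives), in each fit that left out a library and in DESeq2, but not in limma-voom (adjusted p = 0.137). PLOD2, a lysyl hydroxylase, was the 1 of 24 collagen genes and processing enzymes, and was lower (-0.15 ± 0.04, adjusted p = 0.0139, list median 0.03, from -0.00 to 0.05), with up to 0.232 without anastrozole b, E2 a, E2 b or E2 c. NEAT1, the scaffold RNA of paraspeckles, was the 1 of 23 measured long noncoding RNAs of the 24 listed, and was higher (0.12 ± 0.03, adjusted p = 0.0196, list median -0.01). Its groups overlapped, at 2221, 2223 and 1973 CPM with anastrozole and at 1913, 1966 and 2006 CPM with E2, and it kept its call only without anastrozole c, with up to 0.532 elsewhere. TXNIP, PLOD2 and NEAT1 passed in neither DESeq2 nor limma-voom.

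In 10 of the 33 lists no gene passed in edgeR, and none of those lists had a call in DESeq2 or limma-voom. The drug targets and the G1 genes, described above, are among these 10. With the GC trend removed, 2 of the G1 genes, 2 of the lysosomal genes, 2 of the translation factors and 3 of the subunits of oxidative phosphorylation passed, all lower. Without anastrozole a 3 of the oxidative phosphorylation subunits, 1 lysosomal gene, 1 translation factor and 1 ZNF gene passed as lower. Without anastrozole c 1 lysosomal gene and 1 translation factor passed as lower, and 1 splicing factor and 1 ribosomal protein gene as higher. At an unadjusted p under 0.05, which 4.33% of all genes reached as higher and 4.46% as lower, edgeR gave 0 higher and 3 lower of 84 cytosolic ribosomal proteins, whose median was -0.01 and ranged from -0.06 to 0.04 over the alternatives. It gave 0 and 6 of 38 measured translation factors (median -0.03, from -0.05 to 0.00), 1 and 8 of 89 subunits of oxidative phosphorylation (-0.03, from -0.06 to 0.01), and 0 and 1 of 38 measured proteasome subunits (-0.02, from -0.06 to 0.01). For 46 splicing factors the figures were 1 and 1 (0.01), for 33 lysosomal hydrolases and proton pump subunits 2 and 3 (-0.03), and for 63 measured replication-dependent histones 5 and 1 (0.00, from -0.13 to 0.04). Most histone mRNAs of this kind lack a poly(A) tail, and the labels name polyA RNA as the molecule while the library notes speak of total RNA, so what the reads of the histones, and of SNORA64 described below, represent is uncertain. The ZNF zinc finger genes, 522 measured, had 40 higher and 9 lower at that threshold, where 8.79% of all genes reached it in either direction, and a median of 0.04, and 6 of them passed as higher without anastrozole c and 5 with the GC trend removed.

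Outside the lists, further genes stood among those of lowest p. Lower with anastrozole was B4GALT1, the galactosyltransferase of N-glycans, at 412, 422 and 429 CPM against 539, 534 and 530.3 CPM with E2. Its groups were separated by many times their spread (-0.34 ± 0.04, edgeR adjusted p = 5.1e-16). RUNX1, a transcription factor that interacts with the estrogen receptor in luminal cells (-0.40 ± 0.05, adjusted p = 3.6e-12), and SDC2, a heparan sulfate proteoglycan (-0.38 ± 0.05, adjusted p = 2.0e-12), had the same pattern. SERPINA6, which encodes corticosteroid-binding globulin, was lower too (-0.23 ± 0.03, adjusted p = 4.0e-09). RAPGEFL1, the bicarbonate cotransporter SLC4A7 and the formin FMN1 had log2 fold changes of -0.33, -0.31 and -0.27, and all of these genes passed in every alternative.

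Higher with anastrozole, KCNMA1 encodes the pore of the large-conductance calcium-activated potassium channel. It was at 69.0, 67.6 and 73.2 CPM with anastrozole and at 45.3, 49.8 and 51.2 CPM with E2. That is a ratio of 1.43 with no overlap (0.52 ± 0.06, edgeR adjusted p = 4.1e-14). FBXO32, the ubiquitin ligase subunit atrogin of the FOXO program, was at 203, 198 and 195 CPM with anastrozole against 152, 161 and 158 CPM with E2. It too was higher in all 3 libraries (0.34 ± 0.04, adjusted p = 1.5e-12). VTCN1, an immune checkpoint ligand of epithelial cells (0.40 ± 0.06, adjusted p = 6.3e-10), and CITED2, a CBP/p300-binding coactivator (0.32 ± 0.04, adjusted p = 1.9e-09), followed.

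Others of lowest p and higher with anastrozole were the secreted chaperone clusterin, CLU (0.26), the peroxisomal membrane protein gene PXMP4 (0.30), the surface glycoprotein gene CD24 (0.24) and CPT1A, which admits fatty acids into mitochondria (0.25). The matrix protein gene NPNT (0.28), the actin-binding ENC1 (0.40) and SPTLC2, a subunit of serine palmitoyltransferase (0.24), completed that group. Each of these passed in every alternative tried. In all of them, the 3 anastrozole libraries were above the 3 E2 libraries.

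The largest changes were in genes of few counts. SNORA64, a small nucleolar RNA, had 3 counts over the anastrozole libraries and 37 over the E2 libraries, a ratio of E2 over anastrozole of 9.81 (exact binomial 95% interval 3.11 to 49.7, for counting error only, edgeR adjusted p = 0.00252). The call was lost without anastrozole b or E2 b, with an adjusted p of up to 0.0523. RCN3, a calcium-binding protein of the secretory pathway, had 14, 6 and 6 counts with anastrozole and 16, 41 and 29 with E2. Its groups did not overlap in CPM (-1.38 ± 0.35, adjusted p = 0.00993), but it lost its call without anastrozole b, anastrozole c, E2 b or E2 c, with an adjusted p of up to 0.282. GATA4, a transcription factor (-0.98), RARA-AS1 (-0.82), C2CD4A (-0.80), SPINK4 (-0.68) and ANKFN1 (-0.67) were also lower. Their calls were lost, with an adjusted p of up to 0.307, by GATA4 without anastrozole a, anastrozole c, E2 a or E2 b, by RARA-AS1 without anastrozole a, anastrozole b, E2 a or E2 b, by C2CD4A without anastrozole b, E2 b or E2 c, by SPINK4 without anastrozole c or E2 c, and by ANKFN1 without anastrozole b or E2 b. NECAB2, a calcium-binding protein of neurons, was lower whichever library was left out (-0.86 ± 0.18, adjusted p = 7.7e-04, and 0.0659 in limma-voom). None of these 8 genes passed in limma-voom.

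On the higher side, CREB3L1, a transcription factor of the secretory pathway, had 37, 32 and 30 counts with anastrozole and 24, 21 and 17 with E2 (0.997 ± 0.27, edgeR adjusted p = 0.0196). CATSPERB (0.99), CCDC30 (0.88), HPX, the heme scavenger hemopexin (0.62), the adhesion molecule gene CEACAM6 (0.54) and the mucin gene MUC20 (0.52) were of the same kind. All 6 lost their calls without anastrozole b, E2 b or E2 c, HPX also without anastrozole a or E2 a, MUC20 also without anastrozole c, and CCDC30 whichever library was left out, with an adjusted p of up to 0.267. None of the 6 passed in limma-voom or in DESeq2, which gave CREB3L1, CATSPERB and CCDC30 no adjusted p. C1orf64, a gene expressed in estrogen receptor-positive tumours, was at 6.50, 6.97 and 8.22 CPM with anastrozole and at 4.48, 3.41 and 3.39 CPM with E2. It held in every fit that left out a library (0.95 ± 0.17, adjusted p = 8.9e-06), as did LRRC31 (0.53 ± 0.10, adjusted p = 2.3e-05).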

How the data were processed

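RNA was sequenced from T47D cells, and the authors deposited counts of reads per gene as whole numbers without normalization. The submitters' notes name TopHat 2.0.14, run on bowtie 2.2.6, for alignment against the hg19 assembly, and htseq-count, whose version, strand setting and annotation are not given in the sources used here. The table has 25375 lines, 5 of them summaries. In the 6 libraries, reads on no gene made up 58.6% to 59.8% of all reads tallied, reads not placed uniquely 6.60% to 7.40%, ambiguous reads 0.584% to 0.594% and reads on genes 33.0% to 33.5%.

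From the counts onward the work is a re-analysis. The 4238 genes at 0 in all libraries of the table were removed. The 6 libraries were fitted with edgeR 4.0.16 in R 4.3.3 (TMM, robust quasi-likelihood F test, 2-sided, Benjamini-Hochberg over 21132 genes, threshold 0.05), with group as the only term. CPM values use TMM library sizes, with factors of 0.995 to 1.01. In this fit the variance of 18648 genes (88.2%) was fully pooled, whereas after filterByExpr that of 0 genes was. Tables were made with Python 3.11.15, and the steps were tested on simulated data.

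Alternatives were DESeq2 size factors or library size alone, filterByExpr, removal of genes at 0 in the 6 libraries or under an average of 3 log2 CPM, DESeq2 1.42.0, edgeR's exact test, limma-voom (limma 3.58.1), a replicate block, a GC offset (lowess of span 0.5) without and with that block, thinning of the deeper libraries to the shallowest and leaving out each library. Exon GC content and gene coordinates (GRCh37) were read from GENCODE 44, with 21539 genes matched by symbol, 1498 by an older symbol and 2333 unmatched. Promoters came from RefSeq.

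Named genes were the 4 drug and hormone targets, the 12 of lowest p and the 8 of largest change in each direction among those past the threshold, up to 6 members past the threshold and up to 3 of the others with the most reads in each of 33 gene lists, and 7 genes of an earlier account (GREB1, SQLE, FEN1, PXN, NFAT5, PIK3R1 and SSH3). The 33 lists and 6 marker lists, like these rules, were chosen with earlier results of these data known, so their directions are not independent evidence. Some genes that the rule names are not reported here. No set test was run, and vehicle and combination libraries were used only to choose the genes tested, which sets the number of genes in the adjustment.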

Additional observations from a re-analysis of the deposited data

How the results depend on the processing

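The direction of every called gene was the same under each of the 18 alternatives in which that gene was tested, 56 of the 280 genes passed in all 18, and 277 also passed with the GC offset. The counts moved more. In the order all, higher and lower, 160, 71 and 89 genes passed after filterByExpr (of 14669 tested), 149, 65 and 84 when genes averaging under 3 log2 CPM were dropped (of 11022), 107, 53 and 54 with the DESeq2 test (8672 genes had no adjusted p), 163, 72 and 91 with edgeR's exact test and 70, 32 and 38 with limma-voom, and all of these genes were among the 280. With the GC offset 495, 238 and 257 passed. Leaving out 1 library gave 107 to 414 in all, 48 to 179 higher and 59 to 235 lower. DESeq2 size factors (282), library size alone (299), removal of genes at 0 in the 6 libraries (289) and thinning (236) gave counts within 1.5 times of 280. The median log2 fold change of all genes lay between -0.00 and 0.01 in every setting.

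With the replicate letter as a replicate block 180, 81 and 99 genes passed, 174 of them among the 280, and with the GC offset and the replicate block 422, 200 and 222. Across 11022 genes the deviations of anastrozole and E2 libraries of the same letter had correlations of -0.05, 0.01 and -0.20. For libraries of different letters they ran from -0.12 to 0.17. Each deviation is from the mean of 3 libraries of a group, so the values are tied to each other. They do not settle whether the letters pair the libraries.

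Of 228 named genes, 92 passed, and for the 228 the alternatives gave 3612 outcomes alike, 329 no longer past the threshold and 53 newly past it, with 0 reversed. The causes of these differences were not tested, beyond the fewer genes or libraries that some settings have. Limits are the 3 libraries a group, the pooled variance of most genes in the fit as reported and the GC trends of anastrozole a and c. Others are the unknown strand setting, the uncertain treatment time and the depth of anastrozole b, where the floor of 3 counts is 0.303 CPM.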

Other observations

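The genes in this and the next paragraph were chosen after their values were seen, from the 56 that passed in every alternative. Several encode parts of signalling pathways. RARA, the retinoic acid receptor alpha, was at 80.1, 87.5 and 86.9 CPM in anastrozole a, b and c and at 102, 99.8 and 107 CPM in E2 a, b and c. All anastrozole libraries were below all E2 libraries (log2 fold change -0.28 ± 0.05, edgeR adjusted p = 5.3e-06), and RARA-AS1, which covers 11.7% of it on the opposite strand, was lower too. The cytokine receptor kinase gene JAK1 (-0.22, adjusted p = 3.9e-06) and KITLG, the ligand of the KIT receptor (-0.21, adjusted p = 3.4e-05), were lower with anastrozole. BAMBI, a pseudoreceptor that damps TGF-beta signalling, was higher, at 86.8, 86.8 and 94.1 CPM with anastrozole and at 72.3, 73.1 and 71.9 CPM with E2. Its E2 libraries lay close together and below the others (0.30 ± 0.05, adjusted p = 3.5e-06).

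A pair of tubulin genes was among them as well. TUBB2B, a beta-tubulin, was at 9.38, 8.69 and 9.10 CPM with anastrozole and at 14.2, 14.4 and 14.5 CPM with E2. The E2 level was 1.58 times that with anastrozole (-0.66 ± 0.12, edgeR adjusted p = 9.1e-06), and the alpha-tubulin gene TUBA1A was lower by less (-0.21, adjusted p = 3.4e-05). RBBP8, which starts the resection of DNA breaks (-0.32, adjusted p = 1.7e-08), and CLIC6, a chloride channel protein (-0.52, adjusted p = 2.9e-06), were lower. Higher with anastrozole were the sialyltransferase gene ST6GAL1 (0.25, adjusted p = 1.1e-06), the kinase gene PLK2 (0.21, adjusted p = 2.8e-06) and SELENBP1 (0.23, adjusted p = 1.0e-04).

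Of the 280 genes, 3 no longer passed with the GC trend removed, namely PIP, CRIP1 and CIRBP, although their log2 fold changes hardly moved, from 0.22, 0.17 and 0.14 to 0.22, 0.16 and 0.13. PIP, a secreted protein of apocrine breast cells, was at 2084, 2056 and 1754 CPM with anastrozole and at 1566, 1704 and 1794 CPM with E2. Anastrozole c lay below E2 c, so the groups overlapped (0.22 ± 0.05, edgeR adjusted p = 0.014, 0.333 with the GC trend removed and 0.555 without anastrozole a).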
